A study of Homo sapiens with 16 samples.

Results

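The comparison described here is that of DHT with vehicle titles in replicate 2 of the DHT set, which holds 4 of the 16 arrays of the study. Of the 8 HumanHT-12 version 3 arrays hybridised for that set, the 4 titled rep2 were taken, and the 2 titled DHT were set against the 2 titled Vehicle, with the parental and siFoxA1 titles pooled. All arrays carried total RNA of LNCaP-1F5, a line derived from the human prostate cancer line LNCaP with an introduced rat glucocorticoid receptor. By their labels, parental cells and cells depleted of FOXA1 with an siRNA smartpool spent 3 days in charcoal-stripped medium and then 24 hours with 100 nM of 5α-dihydrotestosterone (DHT) or with vehicle. The 4 arrays are thus titled DHT siFoxA1, DHT parental, Vehicle siFoxA1 and Vehicle parental, and the 4 arrays of replicate 1 carry the same titles. The DEX set, 8 version 4 arrays with 100 nM dexamethasone in place of DHT, was used as a second set of arrays. The design text calls the replicates biological duplicates, and no label says which cells, passage or day a number stands for.

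DHT binds the androgen receptor, a transcription factor of the steroid receptor family that enters the nucleus with its ligand and binds DNA at androgen response elements. FOXA1 is a forkhead pioneer factor that opens chromatin at many of the sites this receptor uses in prostate epithelium, and the glucocorticoid receptor recognises very similar elements. FKBP5, a co-chaperone of steroid receptors, is among the best known genes induced by either receptor in LNCaP cells.

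The measured levels of FOXA1 and FKBP5 did not follow the titles, and the 4 arrays were chosen by these levels, which are therefore given without a test. FOXA1 had log2 signals of 12.37 on the array titled DHT siFoxA1 and 12.25 on the one titled DHT parental, against 13.68 on the array titled Vehicle siFoxA1 and 13.61 on the one titled Vehicle parental, a difference of -1.34 ± 0.11 (SE). FOXA1 was thus low on both arrays titled DHT and high on both titled vehicle, whether the cell title was siFoxA1 or parental. FKBP5 stood at 12.97 and 13.16 on the arrays titled DHT and at 12.14 and 12.15 on those titled vehicle, a difference of 0.92 ± 0.16. In replicate 1, FKBP5 stood at only 7.76 and 8.21 on the arrays titled DHT and at 8.22 and 7.92 on those titled vehicle. FKBP5 was therefore high on all 4 arrays of replicate 2 and low on all 4 of replicate 1. In replicate 1 FOXA1 was again lower on the arrays titled DHT, at 12.28 and 12.24, than on those titled vehicle, at 13.57 and 13.54. Each of the 4 arrays correlated best, of the 7 others in its set, with the array of the same replicate number and hormone title and the other cell title. Directions below are those of the titles as deposited, and which cells an array holds was not tested.

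The 2 arrays of each group pool 2 cell titles and were pooled with this likeness known, so p-values below measure only the spread between such arrays, which may be technical. In RNA of whole cultures, fewer cells of a type and less RNA per cell cannot be told apart. The arrays titled DHT had 11216 and 11418 probes detected at p under 0.01 and those titled vehicle 11912 and 12030, and their mean raw signals were 390.5 and 480.6 against 509.9 and 516.2. Of 18 luminal epithelial markers on the array 16 were detected, among them KRT8, KRT18, HOXB13 and KLK3, and MSMB and DPP4 were not. KRT5 and KRT14 of the basal cell list, PTPRC and CD3D of the blood list, CHGA and SYP of the neuroendocrine list and COL1A1, COL3A1 and DCN of the fibroblast list were not detected on any of the 4 arrays. Other members were: 1 of 9 basal markers on the array (S100A2) and 3 of 13 blood and endothelial ones (CD68, PECAM1 and VWF). So were 3 of 14 neuroendocrine markers (ENO2, SCGN and TUBB3) and 9 of 20 mesenchymal and fibroblast ones, among them ACTA2, FN1, THBS1 and VIM.

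Promoter sequences are shown for the 2 genes with the largest increase and the 2 with the largest decrease found in the RefSeq promoter table used here, and for HLA-DMB, the 1 leading gene with a match to a motif. Each is the 250 bases before the transcription start in build GRCh38.p14, on the minus strand, and capitals mark a motif match. They lie at chr7:45921273-45921522 for IGFBP3, chrX:72307158-72307407 for CITED1, chr2:192194934-192195183 for TMEFF2, chr4:69214749-69214998 for UGT2B11 and chr6:32941029-32941278 for HLA-DMB.
IGFBP3: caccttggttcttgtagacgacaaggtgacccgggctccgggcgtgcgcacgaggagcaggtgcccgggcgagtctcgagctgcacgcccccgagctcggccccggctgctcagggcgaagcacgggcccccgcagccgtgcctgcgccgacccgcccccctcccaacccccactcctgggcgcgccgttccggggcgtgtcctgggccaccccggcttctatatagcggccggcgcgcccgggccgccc
CITED1: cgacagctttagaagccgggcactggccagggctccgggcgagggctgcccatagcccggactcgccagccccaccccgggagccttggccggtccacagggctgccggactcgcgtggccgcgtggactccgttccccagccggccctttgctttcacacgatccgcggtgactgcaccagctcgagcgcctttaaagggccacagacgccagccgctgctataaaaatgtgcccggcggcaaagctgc
TMEFF2: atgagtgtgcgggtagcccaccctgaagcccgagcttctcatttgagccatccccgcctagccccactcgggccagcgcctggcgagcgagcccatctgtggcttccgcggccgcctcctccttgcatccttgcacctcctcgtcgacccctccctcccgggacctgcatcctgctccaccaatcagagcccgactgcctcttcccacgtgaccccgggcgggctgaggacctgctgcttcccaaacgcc
UGT2B11: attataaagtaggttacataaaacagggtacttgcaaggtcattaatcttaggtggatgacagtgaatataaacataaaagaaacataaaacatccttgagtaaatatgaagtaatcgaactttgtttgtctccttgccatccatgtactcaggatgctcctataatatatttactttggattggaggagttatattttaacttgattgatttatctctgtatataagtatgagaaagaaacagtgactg
HLA-DMB: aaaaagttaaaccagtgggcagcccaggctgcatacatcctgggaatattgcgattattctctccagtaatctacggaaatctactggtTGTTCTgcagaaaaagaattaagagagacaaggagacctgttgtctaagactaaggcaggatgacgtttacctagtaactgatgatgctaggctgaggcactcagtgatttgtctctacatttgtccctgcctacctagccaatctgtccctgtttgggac

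The windows were searched on both strands for the steroid receptor half-site AGAACA and for the forkhead cores TGTTTAC and TGTTTGC, which do not overlap the half-site. Of the 24 leading genes described below, 17 had a promoter in the table, 1 held a half-site (HLA-DMB, 161 bases before the start) and 0 a forkhead core. A half-site was present in 8.25% of the 291 promoters of genes higher on the arrays titled DHT, in 6.07% of the 313 of genes lower there, and in 7.33% of the 7502 promoters of all genes tested. A forkhead core was present in 5.5%, 4.47% and 3.99% of the same promoters. Over all 27305 promoters of the table the shares were 12.4% and 6.05%. Such matches describe letters in these short windows and not binding.

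Among 9028 genes, 354 (3.92%) were at least 2-fold higher on the arrays titled DHT without overlap of the 2 groups, and 397 (4.4%) were at least 2-fold lower. Without a limit on fold, the groups did not overlap in 5359 genes (59.4%). A gene at least 2-fold apart without overlap is called past 2-fold here, as a description without a p-value, since the arrays were chosen by this contrast. The balance depended on the processing: it was 298 higher to 559 lower under median scaling in place of quantile normalisation, 270 to 240 with an offset of 50 in place of 16, and 198 to 149 without background correction. CDC42EP4 lay just inside the limit at a log2 difference of 1.003 and PURA just outside at 0.997. The siFoxA1-title pair and the parental-title pair gave similar differences: across genes, which are not independent replicates, they correlated at r = 0.79 (Spearman's rho 0.644), and the median gap between the pairs was 0.25 on the log2 scale. The increases reached further than the decreases, with extremes of 5.72 and -3.28.

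**Figure D1:**
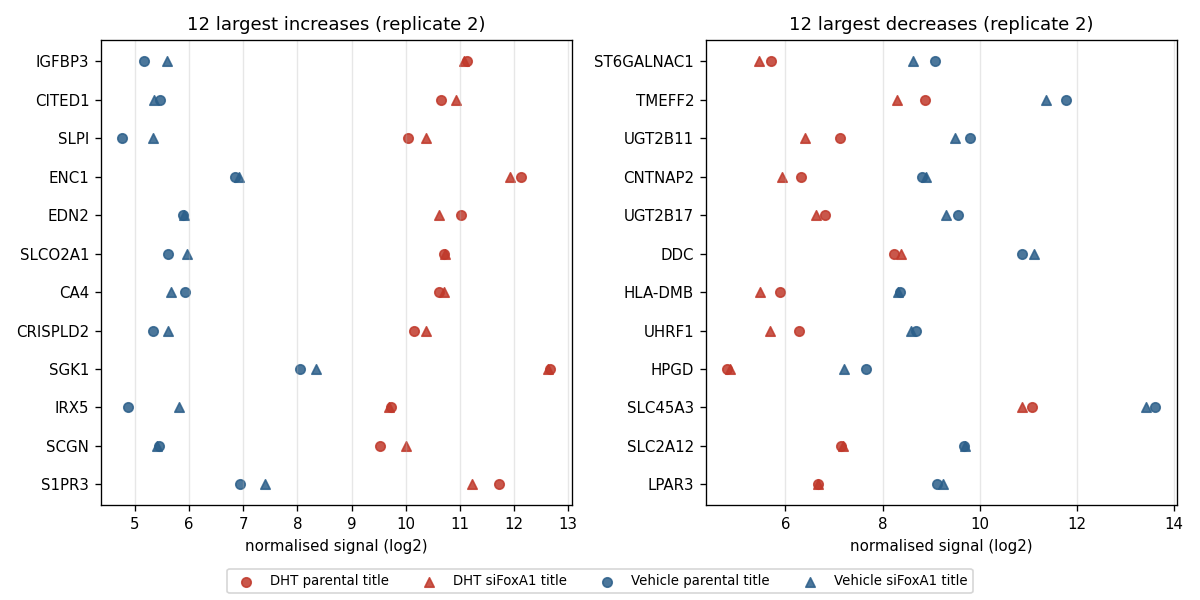
Normalised log2 signal (horizontal axis) of the 12 genes with the largest increases and the 12 with the largest decreases of replicate 2, for each of the 4 arrays. Red marks stand for DHT titles and blue for vehicle titles, circles for parental and triangles for siFoxA1 titles; in each gene the red and blue marks lie apart, as the choice of genes requires.

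The 12 largest increases included several genes for secreted and surface proteins. IGFBP3, a secreted binding protein that holds insulin-like growth factors, had log2 signals of 11.08 and 11.13 on the arrays titled DHT, against 5.60 and 5.17 on those titled vehicle, where it was not detected, so that the difference was at least 33.1-fold. CITED1, a transcriptional co-activator, stood at 10.93 and 10.66 on the arrays titled DHT and at 5.36 and 5.46, undetected, on those titled vehicle, at least 26.6-fold apart. SLPI, a secreted inhibitor of serine proteases, stood at 10.37 and 10.04 on the arrays titled DHT and at 5.34 and 4.77, undetected, on those titled vehicle, at least 17.8-fold apart. These 3 genes were strongly expressed on both arrays titled DHT and not measurable on either titled vehicle. Lower bounds of this kind set the mean of the brighter group against the dimmest detected signal of the other group's arrays, or the probe's own signal where that is higher.

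ENC1, an actin-associated kelch protein, was detected on all 4 arrays, at 11.93 and 12.12 with DHT titles and 6.93 and 6.85 with vehicle titles, a log2 difference of 5.14 ± 0.17 (SE). EDN2, a precursor of the vasoconstrictor endothelin peptides, stood at 10.62 and 11.02 on the arrays titled DHT, against 5.91 and 5.88, undetected, on those titled vehicle, at least 27.2-fold apart. SLCO2A1, a prostaglandin transporter, was at least 25.2-fold higher on the DHT titles, at 10.73 and 10.70 against 5.97 and 5.61. The arrays of each group lay close together in all 3 genes, and the groups were far apart. CA4, a membrane-anchored carbonic anhydrase, was at least 24.2-fold higher on the arrays titled DHT, and S1PR3, a receptor for sphingosine-1-phosphate, differed by 4.30 ± 0.20. SCGN, a calcium-binding protein of neuroendocrine cells, was at least 13.1-fold higher, while CHGA and SYP of the same cells were not detected.

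Among the 12 largest increases, SGK1, a kinase named for its induction by serum and glucocorticoids, stood at 12.63 and 12.67 on the arrays titled DHT and at 8.35 and 8.04 on those titled vehicle, a difference of 4.46 ± 0.30. CRISPLD2, a secreted protein known as a glucocorticoid-responsive gene of airway smooth muscle, stood at 10.38 and 10.16 on the arrays titled DHT and at 5.62 and 5.33, undetected, on those titled vehicle, at least 18.6-fold apart. IRX5, a homeobox transcription factor, was at least 12.6-fold higher on the arrays titled DHT, at 9.69 and 9.72, than on those titled vehicle, at 5.82 and 4.87. None of these 3 genes overlapped between the groups, as the choice of genes requires. The vehicle arrays differed from each other most in IRX5.

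The 12 largest decreases included enzymes, transporters and surface proteins. ST6GALNAC1, a sialyltransferase that makes the sialyl-Tn antigen, was undetected on the arrays titled DHT, at 5.45 and 5.70, and stood at 8.63 and 9.08 on those titled vehicle, at least 5.97-fold lower with DHT titles. TMEFF2, a transmembrane protein with follistatin and EGF-like domains, had signals of 8.29 and 8.87 on the arrays titled DHT, against 11.36 and 11.77 on those titled vehicle, a log2 difference of -2.99 ± 0.21. SLC45A3, the prostate-enriched transporter prostein and a classic androgen-induced gene, had 10.87 and 11.07 on the arrays titled DHT, against 13.42 and 13.61 on those titled vehicle, a difference of -2.54 ± 0.17. Each of these 3 genes was lower on both arrays titled DHT than on either titled vehicle, as the choice of genes requires.

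HPGD, which breaks down prostaglandins, was undetected at 4.85 and 4.80 on the arrays titled DHT and stood at 7.21 and 7.66 on those titled vehicle, at least 2.24-fold lower. HLA-DMB, a subunit of the peptide exchanger of antigen presentation, was at least 4.16-fold lower on the arrays titled DHT, at 5.48 and 5.88 against 8.31 and 8.35. CNTNAP2, a cell adhesion protein of the neurexin family, stood at 5.92 and 6.33 on the arrays titled DHT and at 8.89 and 8.81 on those titled vehicle. With DHT titles HPGD and HLA-DMB were undetected and CNTNAP2 was near the detection limit. All 3 genes were clearly above that limit with vehicle titles. UHRF1, which guides maintenance methylation of DNA, differed by -2.65 ± 0.22, the glucose transporter gene SLC2A12 by -2.53 ± 0.24 and the lysophosphatidic acid receptor gene LPAR3 by -2.53 ± 0.26.

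The 4 measured UGT2B genes of the androgen-repressed list, for enzymes of steroid glucuronidation that inactivate androgens, were past 2-fold lower with DHT titles. UGT2B17 stood at 6.62 and 6.81 on the arrays titled DHT and at 9.31 and 9.55 on those titled vehicle, a log2 difference of -2.72 ± 0.18. UGT2B11 stood at 6.41 and 7.12 on the arrays titled DHT and at 9.49 and 9.80 on those titled vehicle, a difference of -2.88 ± 0.25. DDC, the aromatic amino acid decarboxylase, differed by -2.70 ± 0.14, at 8.37 and 8.23 against 11.11 and 10.88. The 3 genes were low on both arrays titled DHT. The members of the UGT2B family are close in sequence, and probes of one may read another. Of all genes tested, 3.92% were past 2-fold higher and 4.4% lower. Of 10 measured androgen-repressed genes (14 listed), 2 were past 2-fold higher on the arrays titled DHT and 5 lower, with a median log2 difference of -0.72, against -0.03 for all genes. Among probes detected on all 8 arrays, which leave out the dimmer members, that median was 0.23. CAMK2N1, an inhibitor of CaM kinase II, went the other way in that list, at 9.98 and 9.72 with DHT titles against 7.24 and 6.16 with vehicle titles.

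Androgen-induced genes did not move together. Of 36 measured outside the kallikreins (50 listed), 2 were past 2-fold higher on the arrays titled DHT and 10 lower. Their median difference was -0.50, and 3.92% of all genes tested were past 2-fold higher and 4.4% lower. The 2 higher members were SGK1 and TSC22D1. FKBP5, by whose level the arrays were chosen, is among the 36 and was not past 2-fold. SMS, the spermine synthase, stood at 11.15 and 11.18 on the arrays titled DHT and at 12.74 and 12.62 on those titled vehicle, and PMEPA1, a membrane protein that dampens TGF-beta signalling, at 11.30 and 11.37 against 12.65 and 12.91. TMPRSS2, a surface serine protease, stood at 13.26 and 13.28 on the arrays titled DHT and at 14.15 and 14.22 on those titled vehicle, a difference of -0.92 ± 0.12 that did not reach 2-fold. These 3 genes were high on all 4 arrays and lower on both titled DHT. Of the 5 measured kallikreins, serine proteases secreted by the prostate, 1 was past 2-fold higher. That gene was KLK2, at 9.39 and 9.22 on the arrays titled DHT against 8.35 and 8.03 on those titled vehicle. KLK3, which encodes prostate-specific antigen, stood at 9.87 and 9.86 against 8.97 and 9.20, a difference of 0.78 ± 0.18.

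**Figure D2:**
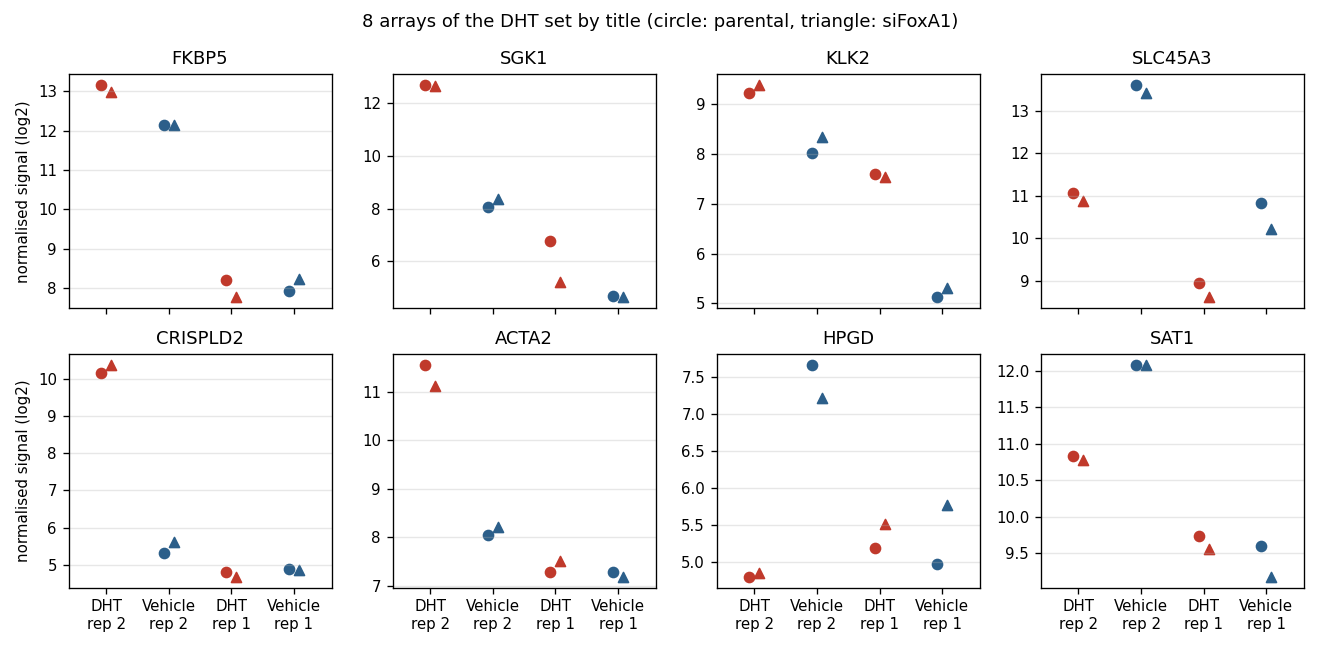
Normalised log2 signal (vertical axis, its range set per gene) of 8 genes on the 8 arrays of the DHT set, by hormone title and replicate number. Red marks DHT titles, blue marks vehicle titles, circles parental and triangles siFoxA1 titles; FKBP5 is above 12 on all 4 arrays of replicate 2 and below 8.3 on all 4 of replicate 1.

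Genes listed as glucocorticoid-induced lay between 0.03 and 4.46 on the log2 scale of differences. Of 19 measured (24 listed), 6 were past 2-fold higher on the arrays titled DHT and 0 lower, with a median difference of 0.75. In replicate 1 the median of the same list was 0.72. Of all genes tested, 3.92% were past 2-fold higher in replicate 2 and 4.4% lower. CDKN1C, the cyclin-dependent kinase inhibitor p57, stood at 9.86 and 10.03 on the arrays titled DHT and at 6.06 and 6.27 on those titled vehicle, a difference of 3.78 ± 0.25. LCN2, a secreted iron-siderophore carrier, differed by 2.97 ± 0.25, CEBPD, a bZIP factor of the acute-phase response, by 1.75 ± 0.19 and KLF9, a Krüppel-like factor, by 1.19 ± 0.15. KLF9 had 11.22 and 11.42 on the arrays titled DHT and 10.18 and 10.07 on those titled vehicle. The groups of CDKN1C and KLF9 did not overlap, as for every gene past 2-fold. SGK1 is counted in this list and in the androgen-induced list. So is FKBP5, by whose level the arrays were chosen, and it was not past 2-fold. Of 15 measured partner transcription factors, 4 were past 2-fold higher and 2 lower, 1 of the lower being FOXA1, by which the arrays were chosen. NFIB, a nuclear factor I protein that binds with FOXA1 and the androgen receptor, stood at 12.20 and 12.43 with DHT titles and at 10.43 and 10.48 with vehicle titles, and SPDEF, a prostate epithelial ETS factor, at 10.60 and 10.83 against 12.02 and 11.58.

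Part of the proliferation genes was past 2-fold lower with DHT titles, where 4.4% of all genes tested were lower and 3.92% higher. Of 30 measured genes of DNA replication and the G1/S transition, 14 were past 2-fold lower on the arrays titled DHT, 0 higher and 16 neither, with a median difference of -0.90. CDC45, a helicase component of the replication fork, was at least 3.46-fold lower, undetected at 5.87 and 5.98 with DHT titles against 8.10 and 8.04 with vehicle titles. Of 39 measured genes of mitosis and G2/M, 17 were lower, 1 higher and 21 neither, with a median of -0.97. CDCA5, the cohesin regulator sororin, stood at 7.45 and 7.44 on the arrays titled DHT and at 9.78 and 9.41 on those titled vehicle, and AURKB, a mitotic kinase, was at least 3.03-fold lower. CKS2, a small subunit of cyclin-dependent kinases, was the 1 higher member, at 12.25 and 12.35 on the arrays titled DHT against 10.37 and 10.52. The groups were apart in each of these genes, as for every gene past 2-fold. Among 12 measured CDK inhibitors and G1 cyclins, 2 were past 2-fold higher (CDKN1C and CDKN2B) and 1 lower (CDK6). CDK6 was undetected on the arrays titled DHT, and the difference shown is at least 1.03-fold only.

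Mesenchymal genes were of mixed detection. Of 20 listed, 9 were measured, and 4 of these were past 2-fold higher on the arrays titled DHT, where 3.92% of all genes tested were. THBS1, a matrix glycoprotein, stood at 9.73 and 10.08 on the arrays titled DHT and at 5.88 and 6.53 on those titled vehicle. SNAI2, a repressor of epithelial genes, stood at 10.16 and 10.43 against 6.79 and 6.70, and ACTA2, smooth muscle actin, at 11.12 and 11.56 against 8.22 and 8.05. Each of the 3 was far higher on both arrays titled DHT. The summed linear signal of the list's detected markers was 4960 and 6270 on the arrays titled DHT and 1040 and 1120 on those titled vehicle, while VIM differed by 0.17 ± 0.29 and the collagens COL1A1, COL1A2 and COL3A1 were undetected; the part of other cells in these results was not tested. The summed signal of luminal markers was 53400 and 50700 on the arrays titled DHT against 62200 and 68100 on those titled vehicle. Within that list CD24, a surface glycoprotein, stood at 13.38 and 13.23 with DHT titles and at 9.31 and 9.07 with vehicle titles, and ACP3, prostatic acid phosphatase, at 8.52 and 8.26 against 10.98 and 10.85. Of the blood and endothelial list 2 genes were measured, and they went opposite ways. CD68, a lysosomal protein common in macrophages, stood at 9.79 and 9.91 on the arrays titled DHT and at 6.55 and 7.09 on those titled vehicle, a difference of 3.03 ± 0.22. VWF, the clotting factor carrier of endothelial cells, was undetected at 4.87 and 4.95 on the arrays titled DHT and stood at 6.83 and 7.17 on those titled vehicle, at least 1.65-fold lower. PECAM1 was detected but was not among the genes tested, and PTPRC was undetected.

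Metabolic and stress lists had small medians. Of all genes tested, 3.92% were past 2-fold higher and 4.4% lower, so 1 gene in a list of 21 or 27 is near those shares. Of 27 measured genes of sterol and fatty acid synthesis, 3 were past 2-fold higher (FADS1, FADS2 and DHCR7) and 1 lower (ACACA), with a median of 0.31. FADS1, a fatty acid desaturase, stood at 12.40 and 12.58 on the arrays titled DHT and at 10.69 and 10.50 on those titled vehicle. Its groups did not overlap, as for every gene past 2-fold. Of 12 measured polyamine genes, SMS and SAT1 were past 2-fold lower, and SAT1, which acetylates spermine and spermidine, stood at 10.78 and 10.83 against 12.07 and 12.08. Of 27 genes of the ER chaperones and unfolded protein response, 1 was past 2-fold lower (CREB3L4) and 0 higher, and of 21 interferon and antigen presentation genes, 1 was higher (IFI6) and 2 lower (HLA-DMA and HLA-DMB). Of 21 glycolysis genes 1 was lower (PFKFB2), of 13 p53 targets 1 was higher (RRM2B) and 1 lower (TP53INP1), and of 7 genes of the insulin-like growth factor axis 3 were higher (IGFBP3, IRS1 and IRS2). None of the 13 common control genes was past 2-fold.

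**Figure D3:**
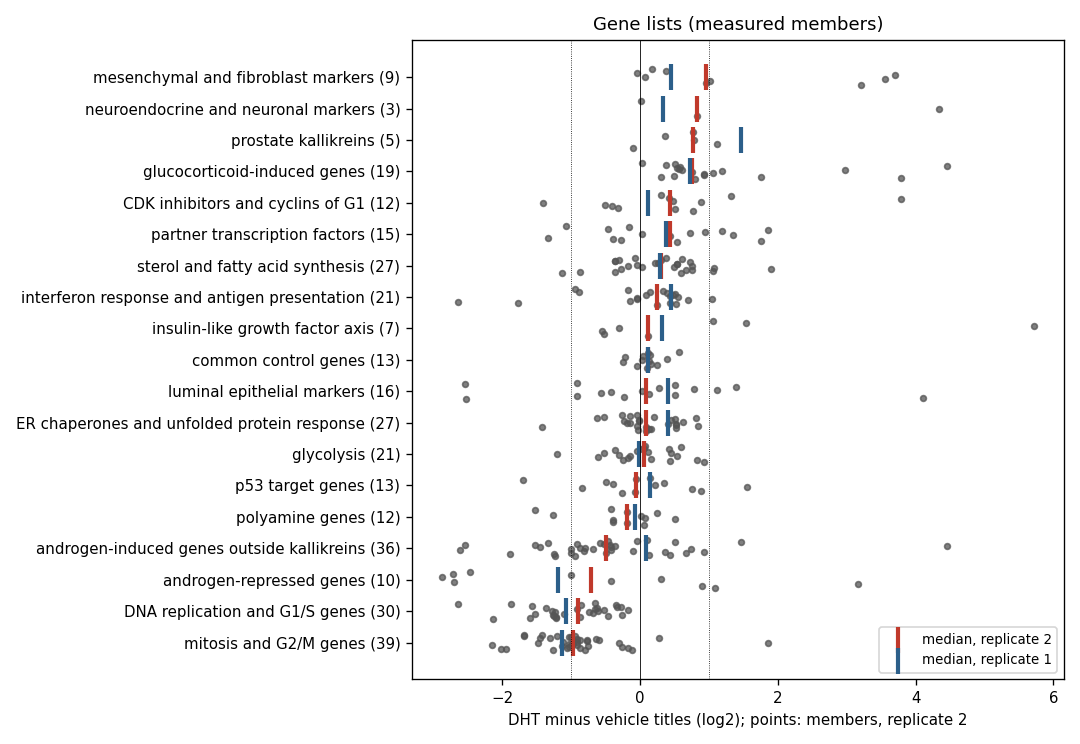
Log2 difference between DHT and vehicle titles (horizontal axis) of each measured member (grey points, replicate 2) of the gene lists, with list medians in red for replicate 2 and blue for replicate 1 and dotted lines at 2-fold. The lists of mitosis and of DNA replication lie lowest, with replicate 2 medians of -0.97 and -0.90.

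The same titles were then compared in replicate 1, whose 4 arrays took no part in the choice. With limma's moderated test, adjusted by Benjamini and Hochberg, 761 genes (8.43%) were higher on the arrays titled DHT of replicate 1 and 812 (8.99%) were lower; median scaling gave 471 and 1100. By the 2-fold measure the counts of replicate 1 were 279 higher (3.09%) and 272 lower (3.01%). Of the 354 genes past 2-fold higher in replicate 2, 190 (53.7%) were called higher and 4 (1.13%) lower in replicate 1. Of the 397 past 2-fold lower in replicate 2, 225 (56.7%) were called lower and 5 (1.26%) higher in replicate 1. Across 9028 genes the differences of the 2 replicate numbers correlated at r = 0.614 (rho 0.51), as a description of arrays normalised together.

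Many leading genes had a like difference in replicate 1, on arrays where FKBP5 was low. IGFBP3 rose by 5.13 ± 0.19 on the log2 scale (adjusted p = 2.91e-16), ENC1 by 4.83 ± 0.17 (adjusted p = 8.29e-17) and SLPI, undetected with vehicle titles, by a fitted 6.22 ± 0.22 (adjusted p = 1.34e-16), by limma. UGT2B17 fell by 3.33 ± 0.18 (adjusted p = 2.28e-13), DDC fell by 2.73 ± 0.14 (adjusted p = 2.28e-13) and TMEFF2 fell by 2.80 ± 0.21 (adjusted p = 1.39e-10). Of the 24 largest differences of replicate 2, those of CRISPLD2, ST6GALNAC1 and HPGD had no call in replicate 1. Over all genes tested, 8.43% were called higher in replicate 1 and 8.99% lower. Of the mitosis list 30 of 39 members were called lower in replicate 1 and 1 higher, and of the replication list 25 of 30 lower and 0 higher. Of the 19 glucocorticoid-induced genes 13 were called higher in replicate 1 and 2 lower, with a median difference of 0.72. KLK2, undetected with vehicle titles, rose by a fitted 2.36 ± 0.22 (adjusted p = 6.9e-09, limma) and KLK3 by 1.59 ± 0.18 (adjusted p = 1.62e-07). Called higher in replicate 1 were 4 of 5 kallikreins.

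**Figure D4:**
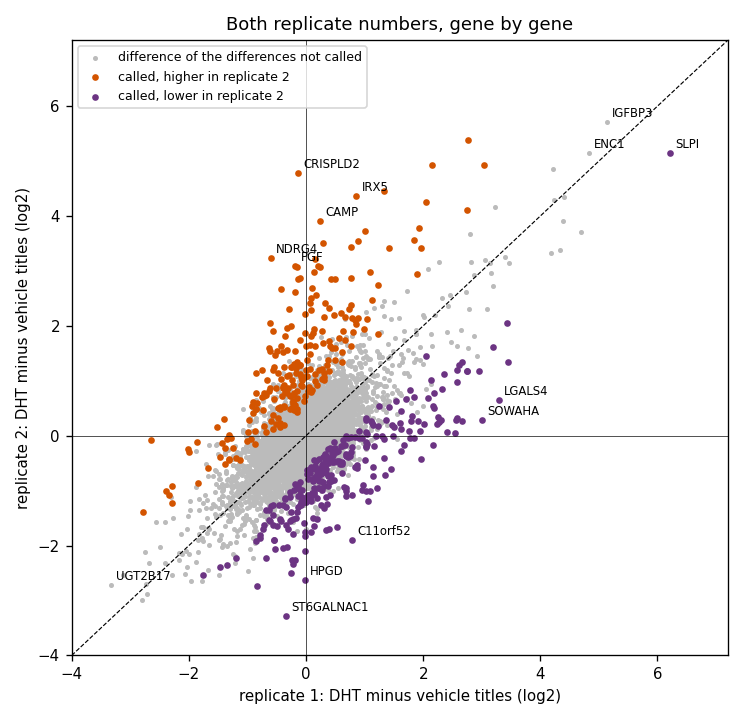
Log2 difference between DHT and vehicle titles in replicate 2 (vertical axis) against replicate 1 (horizontal axis), 1 point per gene with a printed symbol, with the line of equal differences dashed. Orange points (higher in replicate 2) and purple points (lower) passed limma's test of the difference between the differences; CRISPLD2 lies highest above the line and ST6GALNAC1 is the lowest point of replicate 2.

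The difference between the 2 differences was tested in the same fit, which includes the arrays of replicate 2. By limma, 226 genes (2.5%) had a higher difference in replicate 2 than in replicate 1 at an adjusted p under 0.05, and 279 (3.09%) a lower one. CRISPLD2 had the largest, 4.93 ± 0.39 (adjusted p = 1.07e-08), with signals in replicate 1 of 4.67 and 4.81 with DHT titles and 4.85 and 4.89 with vehicle titles. ACTA2 differed by 3.05 ± 0.27 (adjusted p = 4.46e-08) and SGK1 by 3.11 ± 0.42 (adjusted p = 2.22e-05). CRISPLD2 passed the detection filter only through the 2 arrays titled DHT of replicate 2, so its p-value is no independent test. In replicate 1 it was undetected whatever the title, and SGK1 reached 6.78 at most. Where a group was undetected, such a value is a fitted difference and no bound on the fold. SNAI2 differed by 2.66 ± 0.35 (adjusted p = 1.62e-05), CITED1 by 2.62 ± 0.37 (adjusted p = 3.88e-05) and EDN2 by 2.78 ± 0.31 (adjusted p = 1.4e-06). These genes had larger differences with replicate 2 titles. SNAI2 was undetected on all 4 arrays of replicate 1. It passed the detection filter only through the arrays of replicate 2, so its p-value is likewise no independent test.

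In the other direction ST6GALNAC1 differed by -2.94 ± 0.45 (adjusted p = 0.00012, limma) and HPGD by -2.59 ± 0.48 (adjusted p = 0.00104). Both were undetected on all 4 arrays of replicate 1 and present in replicate 2 with vehicle titles. They passed the detection filter only through those vehicle arrays, so their p-values are no independent test. SAT1, with no call in replicate 1, differed by -1.53 ± 0.21 (adjusted p = 3.15e-05). KLK2, undetected with the vehicle titles of replicate 1, differed by a fitted -1.24 ± 0.31 (adjusted p = 0.0128). The call of SLPI, -1.07 (adjusted p = 0.0453), was lost when any one of 6 arrays was left out or under 4 other settings, with adjusted p up to 0.242. That of SLC45A3, -0.79 (adjusted p = 0.0494), was lost without any one of 6 arrays or under 4 other settings, with adjusted p up to 0.302. Of the 19 glucocorticoid-induced genes 8 had a called higher difference in replicate 2 and 2 a lower one. Their median difference between replicates was 0. Of the 36 androgen-induced genes outside the kallikreins 4 had a higher and 9 a lower one, where 2.5% and 3.09% of all genes did. The higher counts of both lists include FKBP5, by whose level the arrays were chosen, so its call is no test. In replicate 1 the calls of SGK1, IRX5 and CNTNAP2 (adjusted p = 0.00194, 0.0304 and 0.0269) were each lost when 1 array of replicate 1 was left out. Without the array titled DHT parental the difference was 0.57 for SGK1 and 0.51 for IRX5, whose call was also lost without either vehicle array. That of CNTNAP2 was -0.56 without the array titled DHT siFoxA1 and -0.66 without the one titled Vehicle parental. With all arrays kept, limma lost the call of SGK1 without the intensity trend (adjusted p = 0.054). CNTNAP2 lost it without background correction (adjusted p = 0.0626) or without the filter (0.116). IRX5 lost it under median scaling (adjusted p = 0.128), with the authors' table (0.0944), without the filter (0.114) and without the trend (0.107).

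The cell title made no called difference in replicate 2. Between the arrays titled siFoxA1 and those titled parental, 0 genes (0%) were called by limma, while 711 (7.88%) had an unadjusted p under 0.05. That fit had title terms and 2 residual degrees of freedom, so it could miss small differences. FOXA1 itself differed by 0.09 ± 0.10 between siFoxA1 and parental titles.

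In the DEX set, the 4 arrays titled siFoxA1 all had high FKBP5, at 13.88 and 13.81 in replicate 2 and 13.89 and 13.80 in replicate 1. FOXA1 stood at 10.84 and 10.84 on those of replicate 2 and at 12.65 and 12.67 on those of replicate 1. On that basis replicate 2 was set against replicate 1 within these titles, with vehicle and DEX titles pooled, on a different array version and with other arrays. By limma, 1275 of 10999 genes (11.6%) were higher in replicate 2 at an adjusted p under 0.05 and 1460 (13.3%) were lower; median scaling gave 927 and 1761. Replicate number and any difference between the cells cannot be told apart here.

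Of the 354 genes past 2-fold higher with DHT titles in replicate 2 of the DHT set, 342 were measured in the DEX set, and 182 (53.2%) were called higher there and 10 (2.92%) lower. Of the 397 past 2-fold lower, 381 were measured, and 259 (68%) were called lower and 12 (3.15%) higher. Of the 8795 genes measured in both sets, 12.6% were called higher in the DEX set and 14.9% lower. IGFBP3 differed by 3.87 (adjusted p = 1.55e-13, limma), SCGN by 4.18 (adjusted p = 5.83e-11), UGT2B17 by -4.63 (adjusted p = 1.77e-14) and DDC by -4.60 (adjusted p = 3.06e-11). ACTA2 went the other way, by -0.71 (adjusted p = 0.000588), and SGK1 (0.28, adjusted p = 0.123) and CDKN1C (-0.28, adjusted p = 0.158) passed no threshold. PGF, a placental growth factor of the VEGF family with no call in replicate 1 of the DHT set, differed by 3.21 (adjusted p = 2.49e-08). The calls of TMEFF2 (-1.05), LPAR3 (-0.59) and HLA-DMB (-0.71) in the DEX set were lost when single arrays were left out, 3, 4 and 2 of the 4 compared, with lowest sizes of -0.90, -0.46 and -0.58. TMEFF2 was dim on all 4, with log2 signals of 4.77 and 4.47 in replicate 2 and 5.57 and 5.78 in replicate 1. Of 41 measured mitosis genes 37 were called lower and 1 (CKS2) higher, and of 33 replication genes 27 lower and 0 higher.

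**Figure D5:**
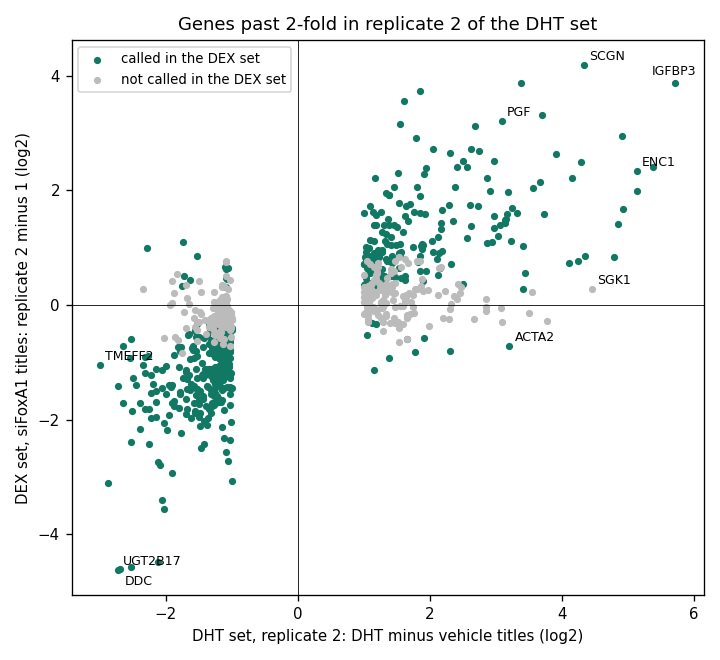
For the genes past 2-fold in replicate 2 of the DHT set that were measured in both sets, the log2 difference between DHT and vehicle titles (horizontal axis) and the log2 difference of replicate 2 minus replicate 1 among the siFoxA1 titles of the DEX set (vertical axis). Green points were called by limma in the DEX set; the upper right and lower left hold most of them, as the 182 and 259 calls in the same direction show.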

How the data were processed

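Biotin-labelled cRNA was hybridised to HumanHT-12 BeadChips, and BeadStudio is named in the submitters' processing notes. The deposited scanner values are, per the file headers, raw mean bead intensity on the linear scale, without background subtraction or normalisation. A detection p-value stands beside each intensity, per the file headers. The authors' deposited table of processed intensity values was used to name probes, by joining rows on their ranks (48794 of 48794 joined), and as an alternative.

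Signals were background-corrected and quantile normalised per set of 8 arrays with limma 3.58.1 neqc (R 4.3.3, offset 16), which gives log2 values of the deposited intensity. Probes were kept if detected (p under 0.01) on 2 or more of the 8 arrays (13094), and each gene with 1 symbol was represented by its kept probe of highest mean (9028 genes). Symbols came from the platform annotation, 7 of them updated. Of the 79 genes named by rule, 14 had other kept probes, and all agreed in sign. The other list members named beside counts are not among these 79. A model of 4 means was fitted with lmFit and eBayes (variance trend, 4 residual degrees of freedom, two-sided, Benjamini-Hochberg over all genes of a set). For the siFoxA1-title test, 1 title term within each replicate number was added to the 4 means, which left 2 residual degrees of freedom. The SE of a siFoxA1-title difference comes from the fit with these terms, and other SEs come from the fit of 4 means. A gene is past 2-fold when its log2 difference is at least 1 in size and the arrays do not overlap.

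Genes named are FOXA1 and FKBP5, the 12 largest increases and decreases past 2-fold, up to 3 members per list, the 5 largest called differences between replicates in each direction, and, chosen after their values were seen, other list members named beside counts. The arrays, the pooling and the gene lists were chosen with earlier results of these data known. The fits were tested on simulated data. The number of arrays limits the precision. Y-linked genes and a few others are not reported here.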

Additional observations from a re-analysis of the deposited data

Results flagged for a closer look

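The genes here have the 5 largest called values in each direction of limma's test of replicate 2 against replicate 1, in which the log2 difference between DHT and vehicle titles of replicate 1 was taken from that of replicate 2. CRISPLD2 differed by 4.93 (adjusted p = 1.07e-08), and IRX5 by 3.50 (adjusted p = 1.24e-06). NDRG4, a member of the N-myc downstream-regulated family, differed by 3.84 (adjusted p = 9.15e-06), with 8.39 and 8.14 on the arrays titled DHT of replicate 2 and no detection on those titled vehicle. CAMP, an antimicrobial peptide precursor, differed by 3.67 (adjusted p = 5.36e-06), and PGF by 3.27 (adjusted p = 4.33e-05). In these genes other than IRX5, replicate 1 had no call between DHT and vehicle titles. CRISPLD2, NDRG4, CAMP and PGF were detected on 2 of the 8 arrays, those titled DHT of replicate 2. They passed the detection filter only through these arrays, so their p-values are no independent test of a difference between replicates.

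On the lower side ST6GALNAC1 differed by -2.94 (adjusted p = 0.00012) and HPGD by -2.59 (adjusted p = 0.00104). Both passed the detection filter only through the arrays titled Vehicle of replicate 2, so their p-values are likewise no independent test. SOWAHA differed by -2.73 (adjusted p = 0.000243), and it was undetected on all 4 arrays of replicate 2 and rose by 3.01 in replicate 1. It passed the filter only through the arrays titled DHT of replicate 1, and the same limit holds. LGALS4, an intestinal galectin, differed by -2.64 (adjusted p = 0.00045), with 6.45 and 5.51 on the arrays titled DHT of replicate 2 against 8.47 and 8.40 on those of replicate 1. LGALS4 was detected on 3 of the 8 arrays and on none titled Vehicle. It needed the arrays titled DHT of replicate 1 to pass the filter, so the same limit holds. C11orf52 differed by -2.69 (adjusted p = 3.4e-05), with a difference of -1.90 in replicate 2 and 0.79 in replicate 1, and the replicate 1 call was lost under other settings. What sets the replicate numbers apart was not tested.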

How the results depend on the processing

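Among the 79 genes named by rule, no difference past 2-fold in replicate 2 changed sign under the alternatives run. Values of the other tests were rerun for at most 30 of these genes, and no called one changed sign. Uncalled values near 0 did, such as the difference between replicates of S1PR3 (0.06, and -0.05 with an offset of 50) and SCGN (-0.06, and 0.10). Among probes detected on all 8 arrays the replicate 2 median of the androgen-repressed list was 0.23. Genes past 2-fold in replicate 2 numbered 270 higher and 240 lower with an offset of 50, 198 higher and 149 lower without background correction, and 193 higher and 209 lower among probes detected on all 8 arrays, where fewer genes were tested. At 1.5-fold they were 837 higher and 1018 lower, and at 4-fold 98 and 46. Median scaling moved the median of all genes in replicate 2 to -0.141 from quantile normalisation's -0.03, and gave 471 higher calls in replicate 1, 175 lower differences between the replicates and 2 lower calls for the siFoxA1 title. Without the intensity trend the differences between replicates were 146 higher and 155 lower. Leaving out 1 array gave 379 to 386 higher and 420 to 467 lower in replicate 2, 500 to 581 higher and 509 to 637 lower calls in replicate 1, 157 to 189 higher and 180 to 235 lower differences between replicates, and 756 to 909 higher and 926 to 1121 lower calls in the DEX set. Counts moved by over 1.5 times without 8 such arrays: in replicate 1, DHT siFoxA1 (500 higher), Vehicle siFoxA1 (509 lower) and Vehicle parental (520 lower); between replicates, Vehicle parental (180 lower) and DHT siFoxA1 (182 lower) of replicate 2; and in the DEX set, DEX siFoxA1 of replicate 1 (756 and 926), Vehicle siFoxA1 of replicate 1 (785 and 955) and Vehicle siFoxA1 of replicate 2 (772 higher). Fewer arrays in a fit lower its counts by construction, and the cause of the other shifts was not tested. Each pair alone gave 411 higher and 507 lower (siFoxA1 titles) and 406 and 455 (parental titles). Of the replicate 2 values of the 79 genes named by rule, 688 moved by less than the spread between arrays under the alternatives and 222 by more. No paired analysis was possible by replicate number, because all 4 arrays of replicate 2 carry 1 number. With the cell title as a block, which the titles allow, replicate 1 gave 876 higher and 946 lower calls, and the test between replicates 278 higher and 377 lower. With 2 arrays per group and dim probes near background, small differences are not resolved.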
